A study of Homo sapiens with 4 samples.

Results

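The transcripts described here set both INO80 knockout cultures of Nalm-6 cells apart from the other cultures in the series. They were chosen by their levels on 4 Agilent arrays. A probe was taken when its level was over 2-fold higher on both knockout arrays than on each of the 2 other arrays, or over 2-fold lower on both, and when it was well above background on at least 1 array. In all, 152 probes were chosen of 25449 that were well above background on at least 1 array (41000 probes in all). They comprised 52 probes higher and 100 probes lower in both knockouts. Of these probes, 103 matched a gene symbol, for 94 genes (33 higher and 61 lower), and 49 carried no symbol. By the choice that defined them, SLC7A11, MCM2 and HSPA1A (5 probes, all lower) were left out.

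Nalm-6 is a human pre-B leukemia cell line. Each of the 4 groups had 1 array: wild-type cells (WT), cells that lack actin-related protein 5 after targeting of both alleles of its gene (Arp5 KO, 1 established line), cells that lack actin-related protein 8 (Arp8 KO, made earlier by a similar protocol), and cells whose genotype label is Arp8 overexpression (the array labelled Arp8 OE). Arp5 KO cells were reported to be viable and to grow slightly more slowly than wild-type cells, whereas conditional knockout of Arp8 was reported to be lethal. There were no replicates, so the spread between cultures of a group is unknown and no test was made. The protocol gave heme at 20 uM for 12 hours, and titles and series design gave heme for all 4 cultures, but the treatment characteristic of both knockouts read no heme. The source of the Arp5 KO sample also read without heme, whereas that of the Arp8 KO sample read with heme. The treatment characteristic therefore splits the 4 arrays into the same 2 pairs as the transcripts do, and genotype and heme cannot be told apart for any transcript described below.

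Arp5 and Arp8 are actin-related subunits of INO80, a complex that slides and exchanges nucleosomes with the energy of ATP. It takes part in transcription, replication and DNA repair. Heme acts as an oxidant in cells and releases the repressor BACH1 from its target genes, of which HMOX1, the gene for heme oxygenase 1, is the best known. B-cell precursors such as Nalm-6 carry the surrogate light chain machinery of the pre-B receptor and respond to cytokines through JAK kinases and STAT factors.

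The level of a probe is given as log2 of its signal over the 75th percentile of the array, so a level of 0 lies at that percentile, and levels are compared between arrays and not between probes. The gap is the smallest of the 4 differences between a knockout array and another array, on the log2 scale. For a probe that is dim on some arrays, only an approximate bound can be given. Each dim spot below the lowest level well above background on its array was raised to that level, called the background limit. This limit was -5.01 in WT, -4.81 on the array labelled Arp8 OE, -5.06 in Arp5 KO and -5.17 in Arp8 KO. The remaining gap is printed as at least N-fold where both arrays with the higher levels were well above background. Some dim spots lay above the limit and kept their level, such as 1 SLC12A3 probe at -4.32 on the array labelled Arp8 OE. The limit is therefore not a detection limit, and a dim spot may hold more signal than it. The 75th percentile of the signal lay between 647.4 and 739.6, between 55.8% and 57.4% of probes were well above background, and no spot was saturated. All 4 arrays lay on 1 slide. Between replicate spots of 1 probe the median SD was 0.058 for probes well above background on all arrays (177 probes). This gives 0.082 for a difference of 2 spots. For dimmer probes the values were 0.20 and 0.28, from only 10 probes. Every transcript chosen here was read by 1 spot per array, so these SDs are taken from other probes and cover the spots of an array only.

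The targeted genes were read first. ACTR5, which encodes Arp5, was at -0.13 in WT, -0.41 on the array labelled Arp8 OE, -4.40 in Arp5 KO and -0.24 in Arp8 KO, so it was low in Arp5 KO alone. The brighter ACTR8 probe was at 0.25, 0.23, 0.01 and -0.44 in the same order, and the dimmer at -1.02, -1.01, -1.11 and -1.55. ACTR8 was lowest in Arp8 KO on both probes and was not raised on the array labelled Arp8 OE, so that label is used as a name only. Where the ACTR8 probes lie relative to the disrupted part of the gene is not given in the sources used here. HMOX1 was at -0.51 in WT, -2.56 on the array labelled Arp8 OE, -3.48 in Arp5 KO and -3.42 in Arp8 KO, with SDs between 0.03 and 0.12 over 9 or 10 spots. Its gap was 0.86, because it was already low on the array labelled Arp8 OE, and it was therefore not among the transcripts chosen.

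The 52 higher transcripts were 0.204% of the probes tested. In the lower direction 0.413% passed, the 5 left-out probes included. These shares restate the choice and no test was made on them. There were 1.92 times as many lower as higher transcripts. Among the 21783 tested probes that were well above background on all 4 arrays, 0.0367% passed in the higher and 0.119% in the lower direction. Of the chosen transcripts, 8 higher and 23 lower were of this kind, 31 in all (20.4%, against 85.6% of all tested probes). The remaining 121 were dim on at least 1 array: 24 higher and 30 lower were well above background on exactly the 2 arrays on which they were high, and 19 higher and 41 lower on 1 array only. The median gap was 1.39 in each direction, and the largest were 4.86 and 3.92. With dim spots raised to the background limit, 15 higher and 42 lower transcripts kept a gap over 1. For 22 higher and no lower transcripts the gap was at or under 0, but near 0 this sign follows from the limits, which lay lower on both knockout arrays than on the other arrays, and is no property of the transcripts.

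**Figure D1:**
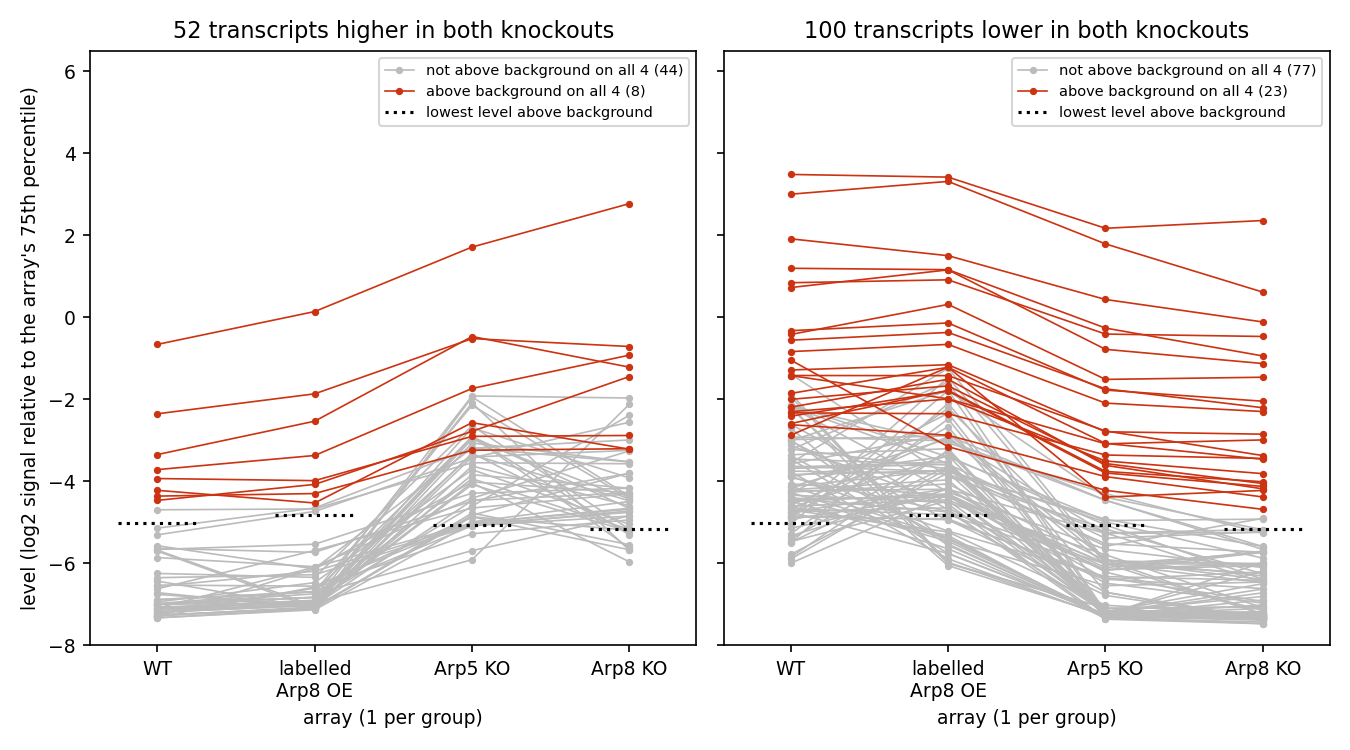
Level (log2 signal relative to the array's 75th percentile) of each chosen transcript on the 4 arrays, 1 array per group, with transcripts higher in both knockouts on the left and lower on the right. Each line joins 1 probe's levels, red lines are the 8 and 23 probes well above background on all 4 arrays, grey lines are the others, and dotted bars mark the lowest level well above background. Most grey lines cross the dotted bars, so that 1 end of their difference lies below the background limit.

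SOCS2, a feedback inhibitor that dampens cytokine receptors signalling through JAK and STAT, had the largest gap among the higher transcripts that were well above background on all 4 arrays, and both of its probes were chosen. Its brighter probe was at -0.66 in WT and 0.14 on the array labelled Arp8 OE, against 1.71 in Arp5 KO and 2.77 in Arp8 KO. Its dimmer probe was at -3.71 and -3.37, against -1.74 and -0.92. On each probe the array labelled Arp8 OE lay above WT (by 0.80 on the brighter probe) and Arp8 KO above Arp5 KO. The gaps were 1.57 and 1.63, or 2.97-fold and 3.10-fold, where the choice itself required a gap over 1.

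ATP7B, the copper-transporting ATPase that is mutated in Wilson disease, and NEK3, a kinase of the NIMA family, are separated on chromosome 13 by 2 further tested genes, ALG11 and UTP14C. ATP7B was at -3.35 in WT and -2.53 on the array labelled Arp8 OE, against -0.47 in Arp5 KO and -1.22 in Arp8 KO, a gap of 2.49-fold. NEK3 was at -4.46 and -4.08, against -2.78 and -1.44, a gap of 2.45-fold. Both genes were high on both knockout arrays, ATP7B more so in Arp5 KO and NEK3 more so in Arp8 KO. The second NEK3 probe was dim in WT and on the array labelled Arp8 OE (-6.72 and -7.10, against -4.83 and -3.80) and left no gap over the background limit. The genes between them lay the other way. ALG11, an enzyme of N-glycan assembly, was at -0.27 and -0.85 against -1.33 and -1.28. UTP14C, a retrocopy of a ribosome biogenesis gene, was at -0.80 and -0.86 against -1.66 and -1.84. Their gaps in the lower direction were 0.43 and 0.80, under the 1 needed to be chosen, and since UTP14C lies inside ALG11 in the RefSeq annotation, their probes may read overlapping RNA.

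The sequence upstream of ATP7B is shown because ATP7B, higher in the knockouts, and ALG11, lower but not chosen, start from it in opposite directions, with 265 bases between their first listed starts (52012132 on the minus strand and 52012398 on the plus strand of chromosome 13). RefSeq lists 3 starts for ATP7B, of which the first is used. The 250 bases before it (RefSeq, GRCh38.p14, chr13:52012133-52012382, minus strand, printed 5′ to 3′ in the direction of the gene) hold 4 matches to the inverted CCAAT box, ATTGG on either strand, which are in capitals and lie between 238 and 141 bases before the start.
ATP7B: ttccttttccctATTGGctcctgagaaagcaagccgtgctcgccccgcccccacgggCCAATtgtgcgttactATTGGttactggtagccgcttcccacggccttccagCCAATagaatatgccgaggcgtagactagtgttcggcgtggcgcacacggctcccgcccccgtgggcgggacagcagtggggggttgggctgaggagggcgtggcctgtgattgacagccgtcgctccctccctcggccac
GC content was 64% over this stretch.

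SPATA9, a gene associated with spermatogenesis, and GRK4, a kinase that phosphorylates activated G protein-coupled receptors, had nearly equal levels within each pair. SPATA9 was at -4.36 in WT and -4.30 on the array labelled Arp8 OE, against -3.24 in Arp5 KO and -3.21 in Arp8 KO. GRK4 was at -3.93 and -3.98, against -2.90 and -2.88. Both were thus close to 2-fold higher in the knockouts (2.08-fold and 2.04-fold). FNDC5, the precursor of the secreted peptide irisin, was dim in WT alone: it was at -5.14 in WT and -4.65 on the array labelled Arp8 OE, against -3.19 in Arp5 KO and -2.99 in Arp8 KO, at least 2.75-fold higher. Of the spots adjacent to the FNDC5 probe, 3 were bright on 1 knockout array and 1 showed the same pattern.

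The largest gaps in the higher direction belonged to transcripts that were dim on both other arrays. GFI1B, a zinc finger repressor of erythroid and megakaryocyte development, was at -7.27 in WT and -7.09 on the array labelled Arp8 OE, against -3.41 in Arp5 KO and -3.24 in Arp8 KO. On this probe it was at least 2.65-fold higher in the knockouts, and 2 of the spots adjacent to it on the array showed the same pattern. A second GFI1B probe was at -5.39 and -5.74 against -5.55 and -2.44, high in Arp8 KO alone, and averaging the gene's probes lowered the gap from 3.68 to 1.85. FHDC1, which encodes a formin, was at -7.33 and -7.12 against -3.07 and -3.52, at least 2.44-fold higher. CXCR5, the receptor that guides mature B cells to follicles, was at -7.00 and -6.83 against -3.35 and -4.48, at least 1.26-fold higher. The bounds were as modest for PIR, an iron-binding nuclear protein (at least 1.27-fold), and OLFML3, a secreted olfactomedin-like protein (at least 1.32-fold). The chosen probe of PDE4B, a cyclic AMP phosphodiesterase, was at least 1.45-fold higher, but its other measured probe, well above background on all 4 arrays, was at -1.35 and -1.04 against -1.15 and -1.31 and did not set the knockouts apart. LINC00968, a long non-coding RNA, was at least 1.86-fold higher, NRIP2, a nuclear receptor interacting protein, at least 1.56-fold, PIP5KL1, a relative of phosphoinositide kinases, at least 1.26-fold, and NECAB2, a calcium-binding protein of neurons, at least 1.15-fold. SSH3, a phosphatase of the slingshot family, was at -6.53 and -6.56 against -4.99 and -4.49 and left no gap over the limit. Adjacent spots with the same pattern numbered 3 for PDE4B, 1 for OLFML3 and 1 for NRIP2. Those bright on 1 knockout array numbered 2, 4 and 2 in the same order. For LINC00968, PIP5KL1 and SSH3 both numbers were 0. The largest measured gap of all was 4.86, for A_23_P143034, a probe with no gene symbol, at -7.01 and -6.83 against -1.92 and -1.97 (at least 7.19-fold). Of the 6 spots around it, 4 were bright on 1 of the 2 knockout arrays.

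Among the lower transcripts, the largest gap well above background on all 4 arrays was that of ALOX5AP. It encodes FLAP, the protein that presents arachidonic acid to 5-lipoxygenase for leukotriene synthesis, and both of its probes were chosen. The brighter probe was at 0.73 in WT and 1.16 on the array labelled Arp8 OE, against -0.78 in Arp5 KO and -1.13 in Arp8 KO. The dimmer was at -2.0 and -1.67, against -3.57 and -4.05. On both, Arp8 KO was lowest and the array labelled Arp8 OE highest, and the gaps were 2.84-fold and 2.96-fold. CYSLTR2, a receptor for cysteinyl leukotrienes, was at -3.46 and -3.60 against -7.30 and -7.47, both of the latter dim, at least 2.76-fold lower. MGLL, the lipase that releases fatty acid from monoacylglycerols, was at -0.56 and -0.37 against -1.75 and -2.21, 2.28-fold lower.

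The 250 bases before the ALOX5AP start (RefSeq, GRCh38.p14, chr13:30713235-30713484, plus strand) are shown because it had the largest fully measured lower gap and holds a match to the antioxidant response element core, TGACNNNGC, through which BACH1 and NRF2 act. The match, in capitals, lies 131 bases before the start.
ALOX5AP: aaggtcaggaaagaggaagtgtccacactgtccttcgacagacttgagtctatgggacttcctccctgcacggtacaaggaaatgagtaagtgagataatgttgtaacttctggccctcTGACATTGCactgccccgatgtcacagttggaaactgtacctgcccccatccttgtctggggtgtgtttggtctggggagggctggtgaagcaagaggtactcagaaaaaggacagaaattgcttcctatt
A match to these letters is a description, and binding at it was not measured on these arrays. The core was in 16% of lower promoters, against 15.4% of promoters of tested genes.

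IL3RA, the alpha chain of the interleukin-3 receptor, had both probes chosen: the brighter was at -0.84 in WT and -0.66 on the array labelled Arp8 OE, against -2.09 in Arp5 KO and -2.30 in Arp8 KO, 2.39-fold lower. The dimmer was at -3.69 and -3.58, against -5.39 and -5.23, at least 2.59-fold lower. LILRB2, an inhibitory receptor for MHC class I, was at -1.86 and -1.22 against -3.08 and -3.46, 2.33-fold lower. VPREB3, which associates with newly made immunoglobulin chains in B-cell precursors, was at 3.0 and 3.31 against 1.79 and 0.61, 2.32-fold lower. Its level in Arp8 KO was well below that in Arp5 KO. IL18RAP, the accessory chain of the interleukin-18 receptor, was at -2.18 and -3.06 against -4.30 and -5.26 (at least 2.36-fold), and CKLF, a chemokine-like factor, at 1.91 and 1.5 against 0.43 and -0.11 (2.10-fold). TRAF3IP3, an adaptor expressed in lymphocytes, had both probes chosen, at least 2.78-fold and at least 2.23-fold lower. On its brighter probe it was at -2.98 and -2.89 against -4.46 and -5.66.

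The stretches upstream of IL3RA and VPREB3 are shown because they hold matches to the STAT site TTCNNNGAA, the letters bound by factors downstream of cytokine receptors. In IL3RA (RefSeq, GRCh38.p14, chrX:1336535-1336784, plus strand) 2 matches, in capitals, lie 199 and 179 bases before the start. In VPREB3 (chr22:23754426-23754675, minus strand) 1 match lies 148 bases before it. The STAT site was in 6% of lower promoters, against 6.46% of promoters of tested genes, and binding at it was not measured.
IL3RA: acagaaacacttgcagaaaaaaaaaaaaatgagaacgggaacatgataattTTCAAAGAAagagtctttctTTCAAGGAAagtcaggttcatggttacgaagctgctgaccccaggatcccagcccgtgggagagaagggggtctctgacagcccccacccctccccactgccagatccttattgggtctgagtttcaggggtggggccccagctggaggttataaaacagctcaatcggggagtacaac
VPREB3: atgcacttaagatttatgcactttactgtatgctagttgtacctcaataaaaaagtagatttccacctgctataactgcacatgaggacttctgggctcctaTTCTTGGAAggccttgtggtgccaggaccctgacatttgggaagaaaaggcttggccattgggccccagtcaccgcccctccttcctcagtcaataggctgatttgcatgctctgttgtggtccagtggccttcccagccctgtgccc

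NCF1 encodes p47phox, the organizer of the phagocyte NADPH oxidase. Its probes were at -2.19 and -2.41 in WT, -1.51 and -1.80 on the array labelled Arp8 OE, -3.61 and -3.80 in Arp5 KO, and -4.18 and -4.13 in Arp8 KO. They were thus 2.67-fold and 2.61-fold lower, and highest on the array labelled Arp8 OE, but NCF1 has near-identical pseudogene copies whose RNA the probes may also read. NEIL1, a glycosylase that removes oxidised bases from DNA, was at 0.84 and 0.91 against -0.41 and -0.47, 2.38-fold lower with nearly equal levels within each pair. GPX3, the secreted glutathione peroxidase, was at -2.19 and -4.26 against -5.66 and -6.10, at least 1.74-fold lower, and its level in WT was well above that on the 3 other arrays.

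CREB5, a transcription factor of the CRE-binding family, had both probes chosen: the brighter was at -0.33 and -0.14 against -1.77 and -2.05 (2.73-fold), the dimmer at -1.42 and -1.42 against -2.77 and -3.37 (2.55-fold). SEPTIN1, a filament-forming GTPase of lymphocytes, was at -1.29 and -1.16 against -2.79 and -2.85, 2.84-fold lower. MX1, an interferon-induced antiviral GTPase, was at 1.19 and 1.16 against -0.26 and -0.94, 2.68-fold lower. In these 3 genes WT and the array labelled Arp8 OE lay close together. SLC12A7, a potassium-chloride cotransporter, was at -2.59 and -1.78 against -3.76 and -4.01 (2.25-fold). SPSB1, a SOCS box adaptor of ubiquitin ligases, was at -2.62 and -2.88 against -3.89 and -4.38 (2.01-fold). ZMYM1, a zinc finger protein, was at -1.42 and -1.99 against -3.09 and -2.99 (2.0-fold). SPSB1 and ZMYM1 were thus only just past the 2-fold limit of the choice. KMO, an enzyme of tryptophan breakdown, was at -2.33 and -2.35 against -3.36 and -3.44 (2.01-fold). COPZ1, a subunit of the coatomer that coats Golgi vesicles, was at 3.48 and 3.42 against 2.17 and 2.36 (2.08-fold).

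**Figure D2:**
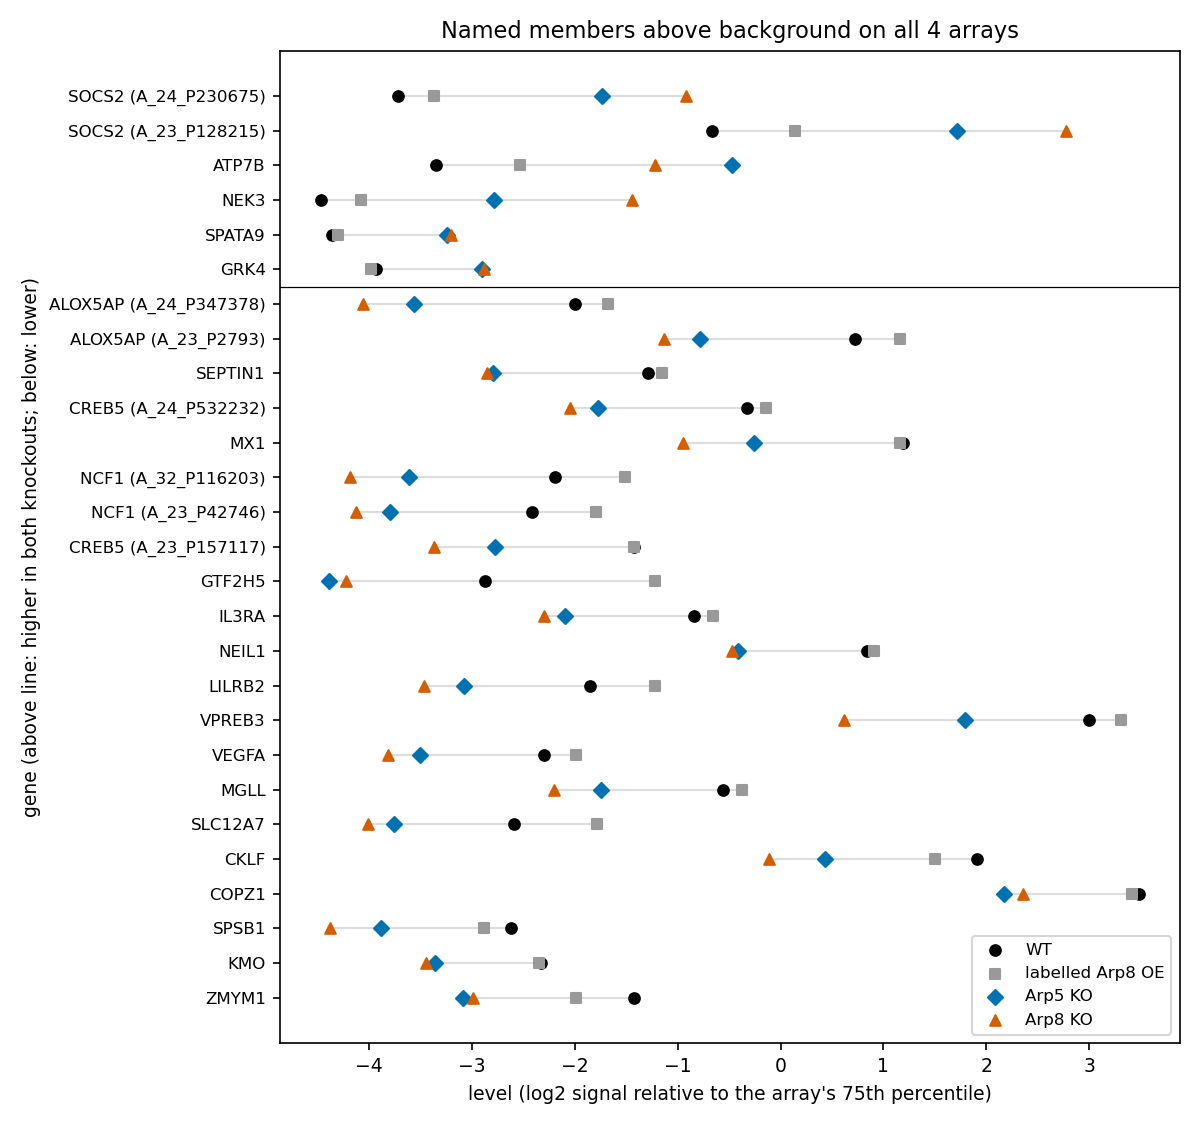
Level (log2 signal relative to the array's 75th percentile) on each array for the named probes well above background on all 4 arrays, 6 higher above the line and 21 lower below it. Circles are WT, squares the array labelled Arp8 OE, diamonds Arp5 KO and triangles Arp8 KO, 1 array each. The knockout symbols lie to the right of the others in the upper block and to the left in the lower block, and Arp8 KO is the outermost in most rows.

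VEGFA, the vascular endothelial growth factor, and its receptor gene FLT1 were both chosen, on 1 of 4 VEGFA probes and on 2 of 3 FLT1 probes. The chosen VEGFA probe was at -2.30 in WT and -1.99 on the array labelled Arp8 OE, against -3.50 in Arp5 KO and -3.81 in Arp8 KO, 2.30-fold lower. The 3 other VEGFA probes, also well above background on all 4 arrays, had gaps of 0.13, 0.08 and -0.47 and were raised mainly on the array labelled Arp8 OE (-1.57, -1.38 and -1.78 there, against -2.64, -2.56 and -4.46 in WT). They thus separated the array labelled Arp8 OE from the 3 others more than the knockouts from WT. Both chosen FLT1 probes were dim on the knockout arrays, and the first was at least 1.56-fold lower. The second was dim on the array labelled Arp8 OE too (-4.52), so its remaining 1.46-fold gap is not a bound. SLC12A3, the sodium-chloride cotransporter of the kidney, had a remaining gap of 1.49-fold on both of its chosen probes, again with dim knockout spots. On 1 of them the spot on the array labelled Arp8 OE was dim too (-4.32), so only the other gives a bound. The remaining SLC12A3 probe, at -3.08 and -6.52 against -6.02 and -7.25, was well above background in WT alone.

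The largest measured gaps in the lower direction also rested on dim knockout spots. CPED1 was at -3.35 in WT and -3.20 on the array labelled Arp8 OE, against -7.27 in Arp5 KO and -7.32 in Arp8 KO, at least 3.27-fold lower. BMPR1B, a receptor for bone morphogenetic proteins, was at -3.65 and -3.53 against -7.20 and -7.27, at least 2.65-fold lower. FOXA2, a forkhead factor of endoderm, was at -2.13 and -3.41 against -4.96 and -4.92, at least 2.86-fold lower, while none of the arrays showed its 2 other probes well above background. HYAL1, a hyaluronidase, was at least 2.80-fold lower, and PDE2A, a cyclic nucleotide phosphodiesterase, at least 2.36-fold. The bounds were smaller for KANK1, a regulator of the actin cytoskeleton (at least 1.81-fold), MAGEL2, a maternally imprinted gene (at least 1.74-fold), CAV2, a caveolin (at least 1.70-fold), KSR1, a scaffold of the RAS pathway (at least 1.29-fold), and PCSK5, a proprotein convertase (at least 1.25-fold). A second KSR1 probe, well above background on 1 array, had a gap of -0.76. As for FOXA2, no array showed the further probes of CPED1, BMPR1B, PDE2A and CAV2 well above background. Of the spots adjacent to the chosen probe, 4 for CAV2 and 3 each for CPED1, FOXA2 and MAGEL2 were bright on 1 array of the high pair. For PDE2A and KANK1 the number was 0.

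**Figure D3:**
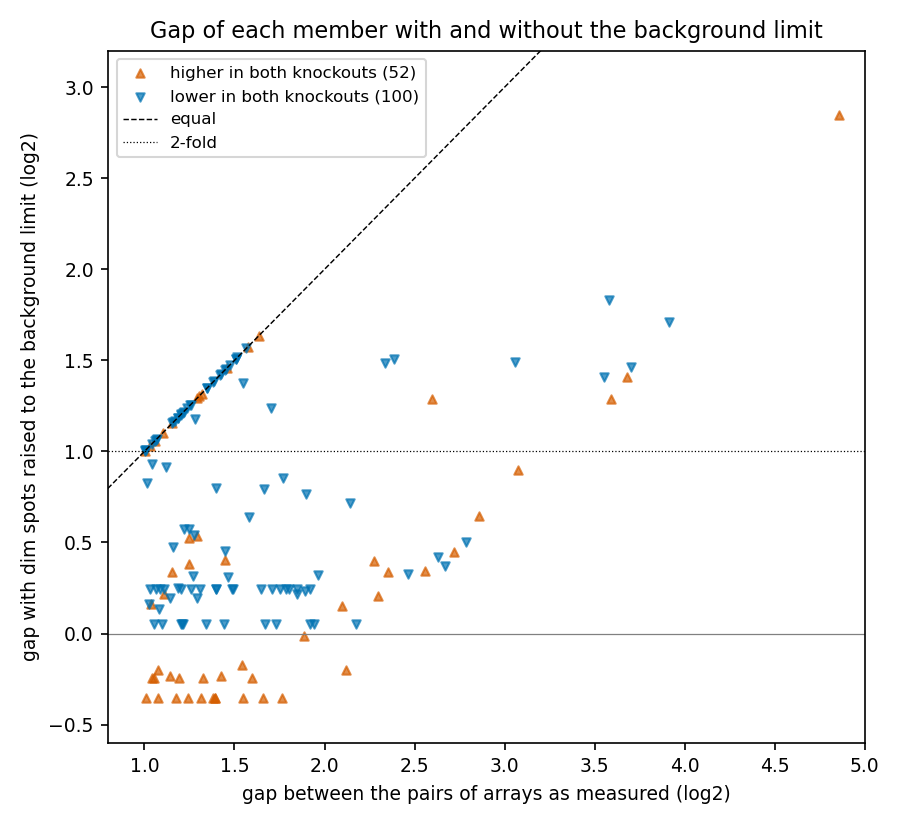
Gap between the knockout arrays and the other arrays as measured (horizontal axis, log2) against the same gap after dim spots were raised to the lowest level well above background (vertical axis, log2), for the 52 higher (upward triangles) and 100 lower (downward triangles) transcripts. Points on the dashed line did not change, the dotted line marks 2-fold and the solid line no gap. Most points at and just around the solid line are transcripts dim on an array where they were high. Others, such as NEK3 on its dimmer probe and SSH3, were well above background on both knockout arrays but close to the limits. The side of the line for such points is set by the different limits of the arrays. The point at the far right is the unnamed probe with a measured gap of 4.86.

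Among the transcripts well above background on all 4 arrays, Arp8 KO was further out than Arp5 KO for 19 of the 23 lower and 5 of the 8 higher ones. Within the other pair, the array labelled Arp8 OE was further from the knockouts than WT for 15 of the 23 lower transcripts, and nearer to them for 6 of the 8 higher ones. Over the well-measured transcripts the median difference between Arp5 KO and Arp8 KO was 0.70 for the higher and 0.33 for the lower, against 0.20 over all probes of that kind, and between WT and the array labelled Arp8 OE 0.37 and 0.31, against 0.21. The arrays of a pair were thus less alike for these well-measured transcripts than for the median probe, but the transcripts had been picked by differences between the arrays. Over all chosen transcripts, dim ones included, the medians were 0.79 for the higher and 0.23 for the lower between the knockouts. Between WT and the array labelled Arp8 OE they were 0.20 and 0.73, and over all tested probes 0.23 in each pair.

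Further probes of the same genes read the same RNA through another sequence on the same arrays. Those well above background on at least 1 array had been open to the same choice and had not met it, so their gaps were under 1 by construction. The rest, 13 for the higher and 25 for the lower genes, were well above background on no array and not open to the choice. Of the 94 genes, 9 had 2 probes chosen: SOCS2 and NEK3 in the higher direction, and ALOX5AP, CREB5, FLT1, IL3RA, NCF1, SLC12A3 and TRAF3IP3 in the lower. For the higher genes there were 23 further probes, of which 7 were well above background on all 4 arrays. Of these 7, 6 had the knockout mean on the same side as the chosen probe, and 3 had the pairs of arrays apart, with gaps between -0.27 and 0.83. The largest, 0.83, was for MARCHF3, a membrane-bound ubiquitin ligase, at -0.73 and -0.73 against 0.10 and 0.20. The further SSH3 probe, at -1.74 and -2.49 against -1.31 and -0.46, had a gap of 0.43.

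For the lower genes there were 47 further probes, of which 14 were well above background on all 4 arrays. Of these 14, 11 had the same sign and 9 had the pairs apart, with gaps between -0.74 and 0.9956 and a median of 0.25. The second CKLF probe, at 0.94 and 0.40 against -0.60 and -0.94, had the largest of these gaps and was just short of the choice. The second probe of COPZ1 had a gap of 0.79, that of SPSB1 0.60, that of ZMYM1 0.55 and that of KMO 0.37. Both further probes of COTL1, an actin-binding protein, were bright and lower in the knockouts, with gaps of 0.65 and 0.62, whereas its chosen probe was dim. GTF2H5, the smallest subunit of the repair and transcription factor TFIIH, went both ways. Its chosen probe was at -2.88 and -1.22 against -4.38 and -4.22, but its other probe lay at 1.69 and 1.51 against 1.73 and 2.25. The further probe of KANK1 was at -3.12 and -3.71 against -7.11 and -4.41, so it was lowest in Arp5 KO.

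**Figure D4:**
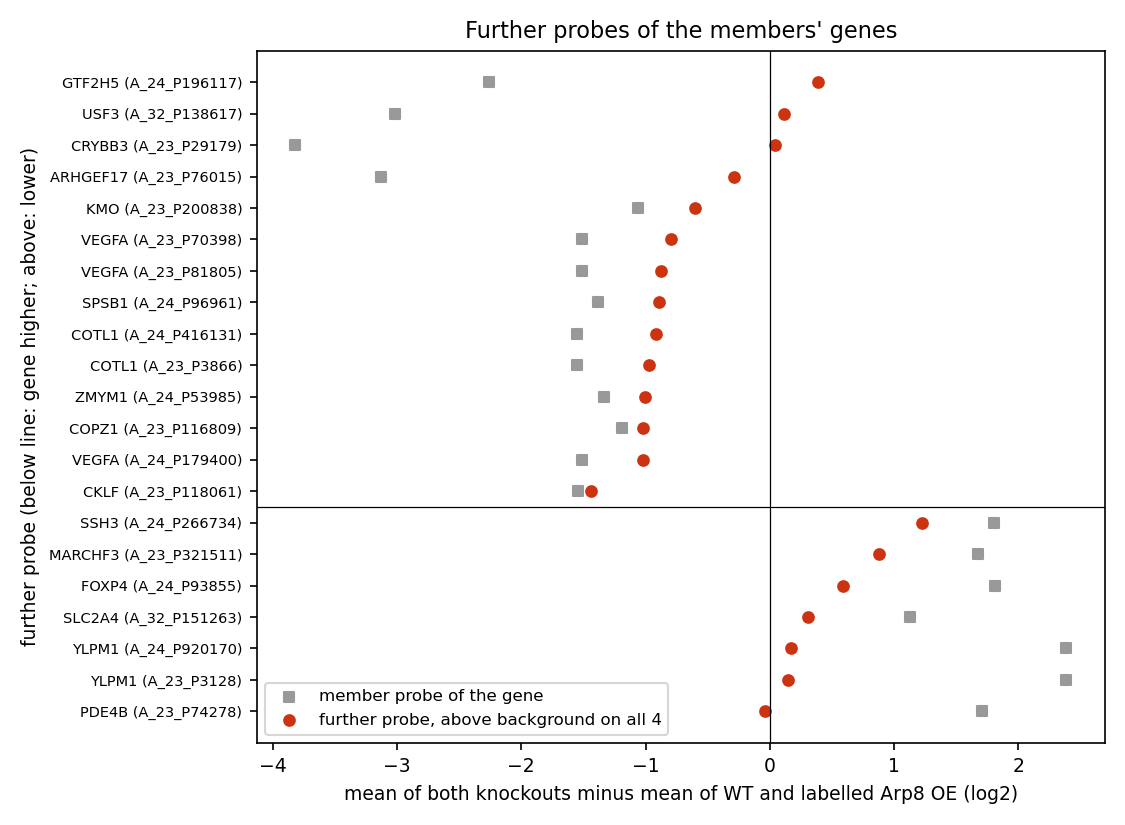
Mean of the 2 knockout arrays minus mean of WT and the array labelled Arp8 OE (log2) for the further probes well above background on all 4 arrays (red circles, 14 of lower genes above the line and 7 of higher genes below it) and for the chosen probe of the same gene (grey squares). Red circles lie on the side of the chosen probe for 11 of 14 and 6 of 7 probes. Their gap was under 1 by the choice, which also holds them nearer to 0.

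The chosen transcripts were read against 14 gene lists (268 genes, of which 247 were tested). Of these, SOCS2 of the cytokine and STAT feedback genes was higher, MX1 of the interferon-stimulated genes and VEGFA of the glycolysis and hypoxia genes were lower, and the other 11 lists held none. Of those 11, the lists of BACH1 and NRF2 targets, heat shock genes and DNA replication genes would each have held 1 lower gene (SLC7A11, HSPA1A and MCM2) but for the genes left out at the start. Over all tested probes 0.204% were chosen as higher and 0.413% as lower. Among probes well above background on all 4 arrays, as most list probes were, the shares were 0.0367% and 0.119%. The list counts are of genes and these shares are of probes, so they are not like for like, and no test was made on the lists. The median difference between the knockout mean and the mean of the other arrays was 0.01 over all tested probes. It was -0.28 for the targets of BACH1 and NRF2, -0.17 for heat shock genes, -0.37 for ATF4 targets, -0.28 for mitosis genes, -0.28 for glycolysis and hypoxia genes and -0.19 for interferon-stimulated genes. It was 0.48 for p53 targets and 0.19 for metallothioneins and zinc export, and between -0.07 and 0.12 for DNA replication, cholesterol synthesis, heme synthesis, INO80 subunit, immediate early and cytokine feedback genes. These medians average both knockouts and need not hold for each. For p53 targets, metallothioneins, BACH1 and NRF2 targets, heat shock and cytokine feedback genes, the summed level in Arp5 KO was intermediate. It lay between those in WT and on the array labelled Arp8 OE. The summed level of the p53 targets (linear, relative to the 75th percentile) was 237.3 in WT, 295.0 on the array labelled Arp8 OE, 260.6 in Arp5 KO and 320.8 in Arp8 KO. That of the metallothioneins and zinc export was 234.5, 274.6, 252.8 and 358.8 in the same order. For the BACH1 and NRF2 targets it was 1043, 795, 939 and 621, and for the heat shock genes 1652, 1453, 1465 and 1391. The pair of knockout arrays lay wholly below the other pair for 16.7% of all tested probes, and for 60.9% of mitosis, 60% of ATF4, 50% of glycolysis and hypoxia, 47.6% of interferon-stimulated, 39.4% of heat shock and 25.8% of BACH1 and NRF2 probes, with the other 8 lists between 0% and 20.8%. It lay wholly above for 18.7% of all tested probes, and for 29.2% of cytokine feedback, 29.0% of p53, 25% of INO80 subunit, 22.2% of immediate early, 20% of heme synthesis and 18.5% of cholesterol synthesis probes, with the other 8 lists between 0% and 10%.

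**Figure D5:**
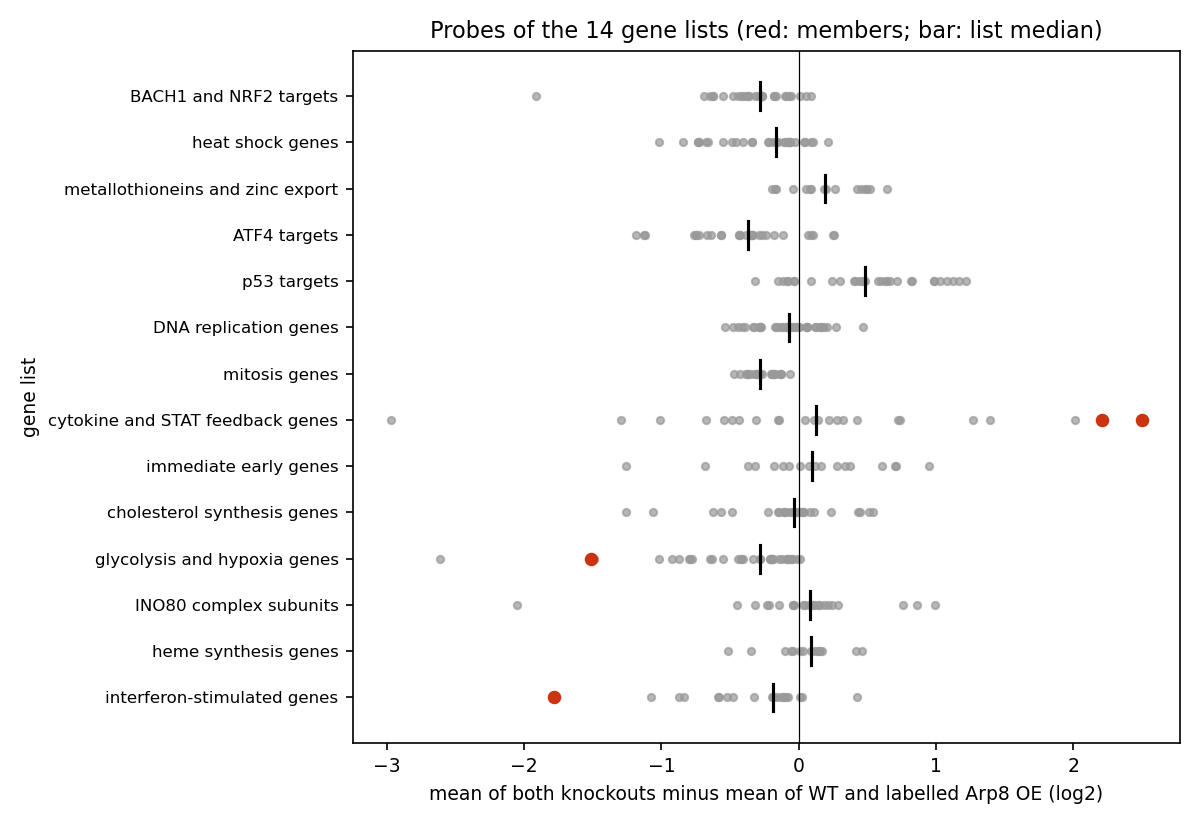
Mean of the 2 knockout arrays minus mean of WT and the array labelled Arp8 OE (log2, horizontal axis) for each tested probe of the 14 gene lists (grey points), with chosen transcripts in red and the median of each list as a black bar. The red points are the 2 SOCS2 probes, VEGFA and MX1, and all list medians lie between -0.37 and 0.48.

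The cell type was read from markers. Of 15 genes of B-cell precursors, 14 were tested and all 14 were well above background on all 4 arrays, and their summed level (relative to the 75th percentile, linear) was 355.7 in WT, 414.3 on the array labelled Arp8 OE, 350.5 in Arp5 KO and 322.1 in Arp8 KO. VPREB3 was the only one of them chosen. Of 6 T-cell genes only CD3E was tested, and it was chosen as higher, but it was well above background in Arp8 KO alone (-6.35 and -6.28, against -5.09 and -4.85) and left no gap over the background limit. For the other T-cell genes, CD3D and CD3G among them, no array had a probe well above background. Of the myeloid, erythroid, and fibroblast or epithelial markers, 4 of 7, 3 of 7 and 2 of 8 genes were tested, 1, 1 and 2 of them were well above background on all 4 arrays, and none was chosen. Their summed levels were at most 0.23, 0.14 and 1.26 on any array. In RNA from whole cultures, fewer cells of a type and less RNA per cell cannot be told apart.

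Positions on the array moved with the choice. Spots were called adjacent when their centres lay within 20 pixels, which gives a spot at most 6 neighbours. Of the higher transcripts 29 (55.8%) and of the lower 53 (53%) had a neighbour that was over 2-fold brighter on 1 array of the high pair than on the 3 others, against 14.2% and 18.5% of the tested probes with 1 spot. A neighbour with the same pattern in all 4 arrays was seen for 10 and 12, against 0.815% and 1.65% of tested probes. Among the transcripts well above background on all 4 arrays the counts were lower: 2 of 8 and 8 of 23 had such a bright neighbour, and GTF2H5 alone had a neighbour with its own pattern. SOCS2 on its brighter probe, ALOX5AP on its dimmer, CREB5 on its brighter, MX1 and KMO each had 1 bright neighbour, and NEIL1 had 2, whereas ATP7B, NEK3, SPATA9, GRK4, SEPTIN1, VPREB3, IL3RA and COPZ1 had none. The part of neighbouring spots in these results was not tested.

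Some chosen genes follow each other on a chromosome with at most 2 tested genes between them. Besides ATP7B and NEK3, such pairs were TMEM154 and FHDC1 on chromosome 4 (both higher, with ARFIP1 between them), DOCK8 and KANK1 on chromosome 9 (both lower, with none between), and PAX1 and FOXA2 on chromosome 20, which went opposite ways. In each of these 3 pairs the chosen probes of both genes were dim on 2 or more arrays. With dim spots raised to the background limit, TMEM154 and PAX1 left no gap (-0.23 and -0.35) and DOCK8 a gap of 0.05. The brighter ARFIP1 probe was at 1.33 and 1.18 against 1.46 and 1.36 and so differed little between the arrays.

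Promoter sequences of 300 bases (250 before and 50 after the first listed start) were in the RefSeq table of GRCh38.p14 for 23 of the 33 higher and 50 of the 61 lower genes, and for 27305 promoters in all. Each motif was searched on both strands without regard to the others, so that matches of different motifs can overlap. The antioxidant response element core TGACNNNGC was in 1 of 23 higher promoters (PIR) and 8 of 50 lower promoters (16%), among them ALOX5AP, BMPR1B, CPED1 and GTF2H5, against 13.6% of all promoters and 15.4% of the 10112 promoters of tested genes. The STAT site TTCNNNGAA was in 1 higher promoter (SPATA9) and 3 lower ones (6%: CYSLTR2, IL3RA and VPREB3), against 7.88% and 6.46%. The inverted CCAAT box ATTGG was in 6 higher (26.1%) and 21 lower promoters (42%), against 35.7% and 37.3%. The E-box CACGTG was in 3 higher and 1 lower, against 7.43% and 10.0%, and the AP-1 site TGANTCA in 2 higher and no lower, against 7.76% and 4.40%. No test was made on these shares, and the absence of a match says only that the letters are not in this window.

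At the border of the choice, the higher transcripts just inside were A_32_P74243, which has no symbol (gap 1.0033), and CCL26, a chemokine (1.0065), and those just outside were RASSF10 (0.9953) and PADI1 (0.9875). In the lower direction ZMYM1 (1.0027) and KMO (1.0057) were just inside, and TLR4 (0.9993) and the second CKLF probe (0.9956) just outside. These gaps differed from 1 by less than the SD of a difference of 2 spots.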

How the data were processed

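Cy3-labelled RNA was read on one-colour Agilent arrays. Per the file headers, the deposited scanner files hold spot intensity from Agilent Feature Extraction 10.10.1.1, background-subtracted and not normalized between arrays (array annotation hg19). The authors' deposited series matrix holds this intensity multiplied by 1 factor in each array. Outlier spots (69 to 76 per array) were left out and log2 signals of a probe's spots were averaged. A probe counted as well above background where at least 50% of its spots did. Symbols came from accessions in a RefSeq table (GRCh38.p14), for 27210 of 41000 probes (66.4%) and 18203 genes. Named were ACTR5, ACTR8, HMOX1, chosen genes of the lists, genes with 2 or more chosen probes, and the 15 largest gaps per direction with the high pair above background. Other genes were named, and genes ordered by role, after their values were seen. The transcripts, gene lists and motifs were chosen with earlier results of these data known. Counting was tested on simulated data. Alternatives covered scaling, background correction (normexp, offset 50, on the median spot signal), filter, floor, threshold, outlier spots and probe averaging. Python 3.11.15, NumPy 2.4.6, pandas 2.3.3, SciPy 1.17.1, Matplotlib 3.10.9, R 4.3.3 and limma 3.58.1 were used. A pair of neighbouring genes is not reported here.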

Additional observations from a re-analysis of the deposited data

How the results depend on the processing

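Against 52 higher and 100 lower transcripts, the counts stayed within 1.5 times under scaling to the median (57 and 93), quantile normalization (66 and 89), cyclic loess (59 and 95), the series matrix (52 and 100), outlier spots kept (53 and 100) and no filter on dim probes (64 and 149). They moved further, for higher and lower in turn, with dim spots raised to the background limit (15 and 42), over probes well above background on all 4 arrays (8 and 23), with a gap over 2 (13 and 13, none of them well above background on all 4 arrays), with all probes of a gene averaged (27 and 48 genes), with normexp (2 and 8), and, in an alternative chosen after seeing the data, without probes beside a spot that was bright on 1 array or shared their pattern (22 and 46). The cause of the fall with normexp was not tested. Its 10 transcripts were SOCS2, A_23_P143034, NEIL1, VPREB3, MX1, CKLF, SEPTIN1, ALOX5AP, COPZ1 and CREB5, all among the 152. List genes chosen as higher were 1, which became 2 under quantile normalization and 2 under cyclic loess (CCND2 was added) and 0 at a gap over 2. Those chosen as lower were 2, which became 1 with normexp (MX1) and 0 at a gap over 2. Without probes beside a bright spot MX1 was lost and VEGFA was left. Of 376 recomputed gaps of 47 named probes, 295 moved by less than the SD of a difference of 2 spots, 78 moved further (46 of them with normexp), and 3 changed sign with dim spots raised: NEK3 on its dimmer probe (-0.013), SSH3 (-0.18) and CD3E (-0.25). No paired analysis was possible because each group has 1 array, so the groups share fewer than 2 replicate numbers. With 1 array per group, spread between cultures is unknown, and 121 of the 152 transcripts were not well above background on at least 1 array.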
